A study of Homo sapiens with 4 samples.

Results

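The subunits of RNA polymerases I, II and III were followed at the mRNA level. They were taken as every protein-coding row of the deposited count table whose gene symbol starts with POLR1, POLR2 or POLR3, which gave 33 genes of the 62893 in the table. Another 14 rows with such symbols were pseudogenes or noncoding transcripts and were left aside. The groups were T24 cells treated with siRNA against NSUN2 (siNSUN2, 2 libraries) and T24 cells treated with control siRNA (siControl, 2 libraries). T24 is a cell line from a carcinoma of the human urinary bladder, and NSUN2 is a methyltransferase that places 5-methylcytosine on RNA. The libraries hold poly(A) RNA, and the labels give neither the siRNA sequences, nor the time after transfection, nor whether each replicate was its own culture, and p-values therefore rest on library spread that may be technical.

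Nuclear transcription is shared among 3 multisubunit enzymes. Polymerase I makes the large ribosomal RNA precursor in the nucleolus, polymerase II makes messenger RNA and most small nuclear RNAs, and polymerase III makes transfer RNA, 5S ribosomal RNA and other short RNAs. Each has a catalytic core of 2 large subunits, an assembly platform, a stalk and a set of small subunits. Of the small subunits, 5 are common to all of the enzymes, and POLR1C and POLR1D are common to polymerases I and III. The symbol therefore does not always name the only enzyme that holds the protein.

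Library totals ran from 33633249 to 215936965 counts, and the 33 genes together took 80965 to 588173 counts per library. Values are given as CPM, each library's counts scaled by its total and TMM factor. The targeted transcript NSUN2 stood at 29.6 and 30.1 CPM in siNSUN2 libraries, against 280.8 and 284 CPM in siControl libraries. Of 8 epithelial markers fixed by hand, KRT8, KRT18 and KRT7 were above 10 CPM in every library and the other 5, EPCAM and CDH1 among them, were below 1 CPM. Of 7 luminal urothelial markers, 4 were below 1 CPM in every library and only PPARG was above 10 CPM in every library, while the mesenchymal markers VIM, CDH2 and FN1 were all above 10 CPM. The summed level of these 3 was 2502 and 2489 CPM in siNSUN2 libraries, against 1507 and 1535 CPM in siControl libraries, and its part in the results was not tested. The summed level of 16 markers of blood, endothelial, fibroblast and muscle cells was 5.85 and 19.2 CPM in siNSUN2 libraries, against 1.62 and 3.35 CPM in siControl libraries. Of these 16, 11 were below 1 CPM in every library, and PECAM1 was at 0 counts throughout. The part of such cells in the results was not tested.

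Subunit mRNAs were more often lower than higher after NSUN2 siRNA. Of the 33 genes, 32 passed the filter on low counts, and at an adjusted p of at most 0.05 in edgeR's quasi-likelihood test 6 were higher, 16 were lower and 10 were not called. Over all 16889 genes tested, 27.1% were called higher and 25.5% lower, so that 52.6% were called in all. Over the 12604 coding genes tested, 33.6% were called higher and 30.7% lower. The median log2 fold change, siNSUN2 over siControl, was −0.24 for the subunits and 0.03 for all genes tested. The CPM of the groups did not overlap for 25 of the 32 subunits, against 74.6% of all genes, a share close to the background. Of the 32 subunits, only POLR3G was called with a change of 2-fold or more. The same held for 1603 of the 16889 genes tested and for 1236 of the 12604 coding genes. Leaving out siControl replicate 1 gave a median of −0.40, and leaving out siControl replicate 2 gave −0.15. Without siControl replicate 1, the log2 fold changes of all genes shared with the main fit shifted by a median of −0.067. A fit without 1 library leaves a group of 1, so its calls, here and below, rest on the spread of the other group only. In bulk RNA, fewer cells of a kind and less of a transcript per cell cannot be told apart.

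**Figure D1:**
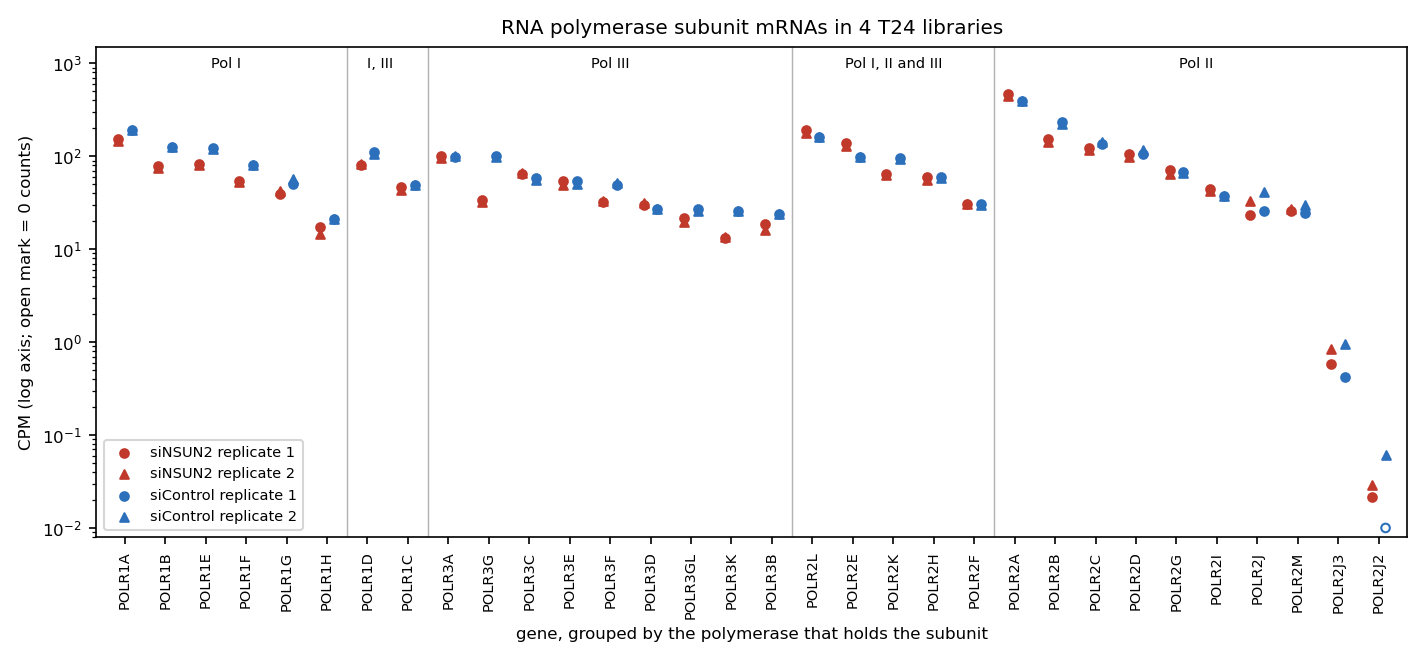
CPM on a log axis for 32 of the 33 subunit genes, with siNSUN2 libraries in red to the left of siControl libraries in blue, circles for replicate 1 and triangles for replicate 2. POLR3G is near 33 CPM in siNSUN2 libraries and near 100 CPM in siControl libraries, and POLR2J2 and POLR2J3 are below 1 CPM in every library.

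**Figure D2:**
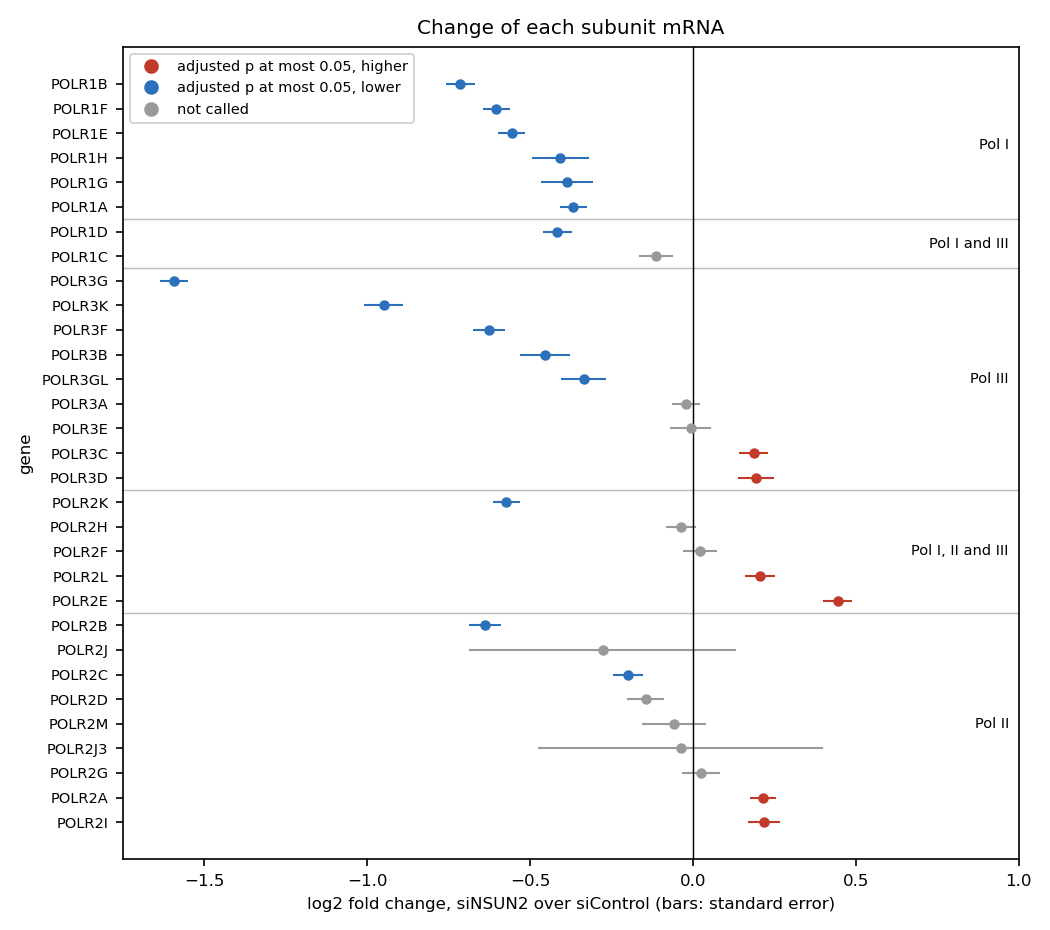
Log2 fold change, siNSUN2 over siControl, of 31 of the 32 subunit genes tested, grouped by the polymerase that holds the subunit. Bars show the standard error derived from the F statistic of the test. All 6 subunits found only in polymerase I lie left of 0, whereas polymerase II and the common subunits lie on both sides.

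All 6 subunits found only in polymerase I were lower in siNSUN2 cells, by 0.37 to 0.71 on the log2 scale, with a median of −0.48. POLR1B, the second largest subunit, which forms the active centre with POLR1A, fell the most. It had 78.4 and 74.6 CPM in siNSUN2 libraries, against 126 and 125 CPM in siControl libraries (log2 fold change −0.71, SE 0.043, adjusted p = 1.21e-06). Its promoter is shown as the leading member of the group that moved together. The window is one of 2 that RefSeq lists for POLR1B, on GRCh38.p14, plus strand of chr2:112542215-112542514, and runs from 250 bases before to 50 bases after the start. Capitals mark a match to the reverse complement of CCGGAAG, a core that ETS factors bind.
POLR1B: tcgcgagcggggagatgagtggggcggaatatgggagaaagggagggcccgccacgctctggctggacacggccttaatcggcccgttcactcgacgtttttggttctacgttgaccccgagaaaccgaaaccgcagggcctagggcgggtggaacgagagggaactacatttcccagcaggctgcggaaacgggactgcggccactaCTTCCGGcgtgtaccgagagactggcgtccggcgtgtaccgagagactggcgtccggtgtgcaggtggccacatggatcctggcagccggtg

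POLR1A, the largest subunit, had 154 and 146 CPM in siNSUN2 libraries, against 194 and 194 CPM in siControl libraries (log2 fold change −0.37, SE 0.042, adjusted p = 6.82e-05). Its siControl libraries differed by far less than the gap between groups. Per kilobase of the 1 transcript used for each gene, POLR1A stood at 0.779 ± 0.0020 of POLR1B in siNSUN2 cells and at 0.612 ± 0.0040 in siControl cells (ratio, mean ± SD, n = 2 each). With groups of 2 the smallest exact permutation p is 0.333, so such ratios are given without a test. The length chosen scales such a ratio alike in every library, and with the union of all annotated exons as length this one was 0.921 and 0.917 in siNSUN2 libraries, against 0.719 and 0.726 in siControl libraries. The ratio is not corrected for the trends of each library with GC content and transcript length. With those trends removed, POLR1A and POLR1B fell nearly alike, at log2 fold changes of −0.52 and −0.59.

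POLR1E, which dimerises with POLR1G in a module that resembles the general factor TFIIF, had 83.1 and 81.1 CPM in siNSUN2 libraries, against 122 and 119 CPM in siControl libraries. Its log2 fold change was −0.56 (SE 0.042, adjusted p = 4.27e-06). POLR1F, the stalk subunit that contacts the initiation factor RRN3, had 54.4 and 52.7 CPM in siNSUN2 libraries, against 81.2 and 81.5 CPM in siControl libraries. For both genes the libraries of a group lay close together and the groups were well apart. POLR1F fell by 0.60 on the log2 scale (SE 0.042, adjusted p = 2.69e-06), and by 0.37 once the trends of each library with GC content and transcript length were removed.

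The calls of POLR1G and of the small subunit POLR1H depended on the setting. POLR1G had 39.2 and 42.8 CPM in siNSUN2 libraries, against 49.8 and 57.0 CPM in siControl libraries (log2 fold change −0.39, SE 0.079, adjusted p = 0.00756). The call was lost without siNSUN2 replicate 1 (−0.33, adjusted p = 0.0851). In the annotation, 43.5% of its exon bases overlap ERCC1 on the opposite strand, and the strand setting of the counting is not given in the sources used here. POLR1H, which takes part in RNA cleavage and resembles the elongation factor TFIIS, had 17.2 and 14.4 CPM in siNSUN2 libraries, against 21.2 and 21.0 CPM in siControl libraries (log2 fold change −0.41, SE 0.086, adjusted p = 0.00409). With all libraries thinned to the shallowest its adjusted p was 0.0627, and 24.5% of its exon bases overlap the antisense transcript POLR1HASP.

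Both subunits common to polymerases I and III form the assembly platform of those enzymes. POLR1D had 80.7 and 82.0 CPM in siNSUN2 libraries, against 111 and 106 CPM in siControl libraries (log2 fold change −0.42, SE 0.043, adjusted p = 3.66e-05). With the GC and length trends removed, its log2 fold change was −0.25. POLR1C, its partner, stood at 47.0 and 43.5 CPM in siNSUN2 libraries, against 48.6 and 49.4 CPM in siControl libraries, and was not called (log2 fold change −0.11, SE 0.051, adjusted p = 0.0947). The log2 fold change of POLR1C was −0.19 without siControl replicate 1, −0.18 without siNSUN2 replicate 1 and 0.0076 with the trends removed.

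Among the 10 subunits found only in polymerase III, 6 were lower, 2 were higher and 2 were not called, with a median log2 fold change of −0.36. POLR3G showed the largest difference of all 32 subunits. POLR3G sits in the subcomplex that opens the promoter together with POLR3C and POLR3F, and it is known as the form of this subunit that is abundant in stem cells and many tumour cells. It had 33.5 and 32.5 CPM in siNSUN2 libraries, against 100.2 and 99.2 CPM in siControl libraries, which is 0.332 of the siControl level. The log2 fold change was −1.59 (SE 0.043, adjusted p = 3.18e-08), and −1.32 with the GC and length trends removed. Over the 18 alternative settings it lay between −1.66 and −1.32.

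POLR3GL, the paralogue that takes the place of POLR3G in the enzyme and is widely expressed, changed less. It had 21.7 and 19.7 CPM in siNSUN2 libraries, against 26.9 and 25.5 CPM in siControl libraries (log2 fold change −0.34, SE 0.068, adjusted p = 0.00245), and it was not called with all libraries thinned to the shallowest (−0.23, adjusted p = 0.119). Per kilobase of transcript, the ratio of POLR3G to POLR3GL was 0.549 and 0.586 in siNSUN2 libraries, against 1.32 and 1.38 in siControl libraries. POLR3G thus lay below its paralogue in both siNSUN2 libraries and above it in both siControl libraries, also by exon union, with 0.692 and 0.739 in siNSUN2 libraries, against 1.67 and 1.74 in siControl libraries. The ratio averaged 0.567 ± 0.026 in siNSUN2 cells and 1.35 ± 0.044 in siControl cells (SD, n = 2 each). Of the 100-base windows along the POLR3G transcript, 0.534% also occur in transcripts of another gene, POLR3GP2, and 11.7% of those of POLR3GL occur in another gene. Of the exon bases of POLR3GL, 21.2% overlap an unnamed coding gene on the same strand. The effect of that overlap on the level of POLR3GL, and so on the ratio, was not tested. Neither paralogue shared a window with the other.

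**Figure D3:**
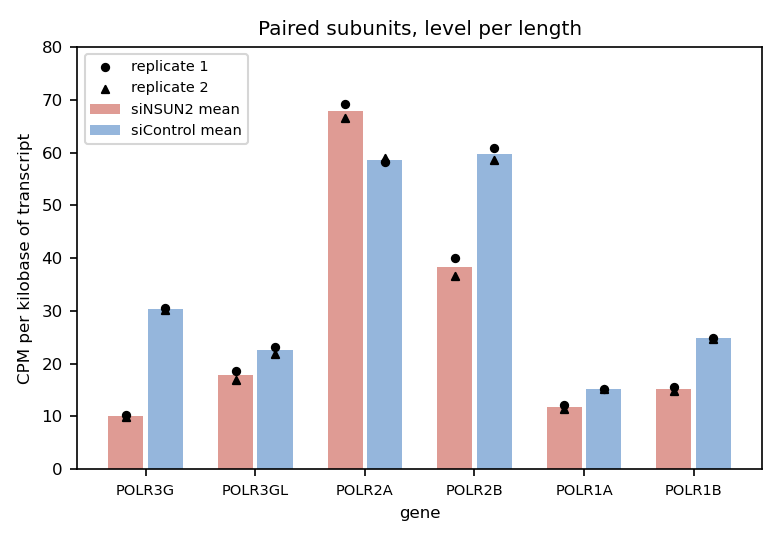
CPM per kilobase of transcript for POLR3G and its paralogue POLR3GL and for the large subunits of polymerases II and I, with siNSUN2 bars in red left of siControl bars in blue (means) and points for the 2 libraries of each group. POLR3G and POLR3GL change order between the groups. With the transcript lengths used, POLR2A stands above POLR2B in siNSUN2 cells, at a ratio of 1.73 and 1.81. In siControl cells POLR2A lies close to POLR2B, at 0.956 and 1.00.

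POLR3K, a small zinc-binding subunit that takes part in RNA cleavage and termination, had the next largest fall. It had 13.4 and 13.4 CPM in siNSUN2 libraries, against 25.8 and 25.9 CPM in siControl libraries, or 0.518 of the siControl level (log2 fold change −0.95, SE 0.060, adjusted p = 1.54e-06). The libraries of a group were almost equal and the groups were far apart. Its promoter window from RefSeq (GRCh38.p14, minus strand, chr16:53559-53858) is shown because POLR3G has no window in the table used. Capitals mark matches to CCAAT, the box bound by NF-Y, on either strand.
POLR3K: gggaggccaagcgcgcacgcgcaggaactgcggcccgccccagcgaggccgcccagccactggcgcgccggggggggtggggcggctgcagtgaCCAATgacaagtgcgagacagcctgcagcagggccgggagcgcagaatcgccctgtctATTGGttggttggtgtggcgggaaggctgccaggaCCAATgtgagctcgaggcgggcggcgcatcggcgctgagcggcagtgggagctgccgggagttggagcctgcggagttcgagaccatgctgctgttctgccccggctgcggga

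POLR3F, a winged-helix protein of the initiation subcomplex, had 32.2 and 33.2 CPM in siNSUN2 libraries, against 49.3 and 51.7 CPM in siControl libraries (log2 fold change −0.63, SE 0.049, adjusted p = 5.78e-06; −0.42 with the trends removed). POLR3C, its partner there, went the other way. It had 64.3 and 65.3 CPM in siNSUN2 libraries, against 58.4 and 55.6 CPM in siControl libraries (log2 fold change 0.19, SE 0.044, adjusted p = 0.00617). The rise was not called without siControl replicate 2 (0.13, adjusted p = 0.0653), with DESeq2 (0.16, adjusted p = 0.0567) or at thinned depth (0.12, adjusted p = 0.156), and it was 0.26 with the trends removed.

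The catalytic pair of polymerase III was unequal. POLR3A, the largest subunit, had 100.2 and 96.7 CPM in siNSUN2 libraries, against 98.2 and 102 CPM in siControl libraries, and the groups overlapped (log2 fold change −0.02, SE 0.043, adjusted p = 0.715). POLR3B, which completes the active centre, had 18.6 and 16.1 CPM in siNSUN2 libraries, against 23.98 and 23.72 CPM in siControl libraries (log2 fold change −0.45, SE 0.077, adjusted p = 8.32e-04). Per kilobase of transcript, POLR3A stood at 3.67 ± 0.29 times POLR3B in siNSUN2 cells and 2.70 ± 0.091 times in siControl cells (SD, n = 2 each). With the GC and length trends removed, the log2 fold changes of POLR3A and POLR3B lay closer together, at −0.04 and −0.31.

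POLR3D and POLR3E form the counterpart of TFIIF in this enzyme. POLR3D had 30.2 and 31.5 CPM in siNSUN2 libraries, against 27.0 and 27.0 CPM in siControl libraries, and was called higher (log2 fold change 0.19, SE 0.054, adjusted p = 0.0141). That call was lost without siControl replicate 1 (0.13, adjusted p = 0.195), without siControl replicate 2 (0.17, adjusted p = 0.0847) and without siNSUN2 replicate 2 (0.18, adjusted p = 0.0575). POLR3D stood at −0.0026 with the trends removed. POLR3E was not called, with 54.8 and 49.5 CPM in siNSUN2 libraries, against 54.6 and 50.5 CPM in siControl libraries (log2 fold change −0.0077, SE 0.063).

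For the 10 genes of subunits and associated proteins found only with polymerase II, no common direction was seen. Of the 9 tested, 2 were higher, 2 were lower and 5 were not called, with a median log2 fold change of −0.06. POLR2A, the largest subunit, whose tail of heptad repeats is phosphorylated during the transcription cycle, had 468 and 449 CPM in siNSUN2 libraries, against 392.3 and 397.4 CPM in siControl libraries. It was the most abundant of the 33 mRNAs in CPM, and its rise was called (log2 fold change 0.21, SE 0.040, adjusted p = 0.00144). With the GC and length trends removed it stood at −0.04 (adjusted p = 0.345).

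POLR2B, the partner of POLR2A in the active centre, fell. It had 153 and 141 CPM in siNSUN2 libraries, against 233 and 225 CPM in siControl libraries (log2 fold change −0.64, SE 0.049, adjusted p = 5.19e-06), and its siNSUN2 libraries were both far below both siControl libraries. Per kilobase of transcript, POLR2A stood at 1.73 and 1.81 times POLR2B in siNSUN2 libraries, against 0.956 and 1.00 times in siControl libraries. By exon union the ratio was 2.15 and 2.25 in siNSUN2 libraries, against 1.19 and 1.25 in siControl libraries, so its distance from 1 depends on the length. The length cannot alter how the groups compare. With the GC and length trends removed, the log2 fold changes of POLR2A and POLR2B lay closer together, at −0.04 and −0.48, against 0.21 and −0.64 as tested.

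POLR2I, a small zinc-binding subunit that resembles POLR1H and POLR3K in sequence, had 44.6 and 42.1 CPM in siNSUN2 libraries, against 37.3 and 37.2 CPM in siControl libraries (log2 fold change 0.22, SE 0.049, adjusted p = 0.00448). The rise was not called without siControl replicate 1 (0.15, adjusted p = 0.0719) or with DESeq2 (0.19, adjusted p = 0.0607), and turned to −0.15 (adjusted p = 0.0333) with the trends removed. Of its exon bases, 61.9% overlap an unnamed transcript and 32.9% overlap TBCB, both on the opposite strand. POLR2C, of the assembly platform, had 123.4 and 116.6 CPM in siNSUN2 libraries, against 135 and 141 CPM in siControl libraries (log2 fold change −0.20, SE 0.046, adjusted p = 0.00506).

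The stalk of polymerase II, made of POLR2D and POLR2G, was not called. POLR2D had 105 and 97.6 CPM in siNSUN2 libraries, against 107 and 117 CPM in siControl libraries (log2 fold change −0.15, SE 0.057, adjusted p = 0.0639). It stood at −0.27 without siControl replicate 1. POLR2G had 71.7 and 64.0 CPM in siNSUN2 libraries, against 68.1 and 65.5 CPM in siControl libraries, and the groups overlapped (log2 fold change 0.02, SE 0.059). POLR2M, also known as Gdown1, binds polymerase II and makes it depend on Mediator. It had 25.6 and 26.8 CPM in siNSUN2 libraries, against 24.5 and 29.8 CPM in siControl libraries (log2 fold change −0.06, SE 0.098), and stood at −0.25 without siControl replicate 1. Without that library, the median of the subunits found only in polymerase II was −0.27, while all shared genes shifted by a median of −0.067.

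POLR2J, the partner of POLR2C in the platform, differed more between replicates than between groups. It had 23.4 CPM in siNSUN2 replicate 1 and 33.1 CPM in siNSUN2 replicate 2, against 25.7 CPM in siControl replicate 1 and 41.7 CPM in siControl replicate 2 (log2 fold change −0.28, SE 0.41, adjusted p = 0.663). Near-identical copies of this gene lie on the same chromosome. Of the 100-base windows along the POLR2J transcript, 25.5% also occur in transcripts of other genes, and the same holds for 100% of the windows of POLR2J2 and 89.3% of those of POLR2J3. POLR2J3 had 53 and 29 counts in siNSUN2 libraries, against 18 and 204 counts in siControl libraries (log2 fold change −0.04, SE 0.44). POLR2J2 had 2 and 1 counts in siNSUN2 libraries, against 0 and 13 counts in siControl libraries, and did not pass the filter. Reads of these genes may be lost or assigned to any copy, so their values are uncertain. POLR2M shares 1189 of its 4100 windows with GCOM1, a readthrough gene, or with POLR2MP1.

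Among the 5 subunits common to all of the enzymes, 2 were higher, 1 was lower and 2 were not called, with a median log2 fold change of 0.02. POLR2E had the largest rise of all 32 subunits. It had 139 and 130 CPM in siNSUN2 libraries, against 99.1 and 99.0 CPM in siControl libraries (log2 fold change 0.44, SE 0.045, adjusted p = 2.95e-05). With the GC and length trends removed it was no longer called (0.08, adjusted p = 0.12). Its promoter window from RefSeq (GRCh38.p14, minus strand, chr19:1095326-1095625) is shown as that of the largest rise. It is in lower case throughout because it holds no match, on either strand, to the E-box or to the ETS, NRF1, TATA, YY1 and CCAAT motifs that were searched. It does hold the GC box, GGGCGG, which is not capitalised in any window shown.
POLR2E: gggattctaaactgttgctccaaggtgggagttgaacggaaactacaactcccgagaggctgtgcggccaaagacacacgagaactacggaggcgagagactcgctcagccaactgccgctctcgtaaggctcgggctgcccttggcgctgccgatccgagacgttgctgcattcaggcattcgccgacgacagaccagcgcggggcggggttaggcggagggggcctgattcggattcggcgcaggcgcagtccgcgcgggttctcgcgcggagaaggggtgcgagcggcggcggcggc

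POLR2L, a small zinc-binding subunit at the base of the assembly platform, had 193 and 179 CPM in siNSUN2 libraries, against 161 and 162 CPM in siControl libraries (log2 fold change 0.21, SE 0.045, adjusted p = 0.00408). Of its exon bases, 22.5% overlap CD151 on the opposite strand, and its log2 fold change turned to −0.18 (adjusted p = 0.0136) with the trends removed. POLR2K, another small zinc-binding subunit, fell. It had 64.6 and 62.7 CPM in siNSUN2 libraries, against 95.2 and 94.4 CPM in siControl libraries (log2 fold change −0.57, SE 0.041, adjusted p = 3.37e-06), and stood at −0.30 with the trends removed.

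POLR2F and POLR2H were not called. POLR2F had 30.6 and 30.8 CPM in siNSUN2 libraries, against 30.4 and 30.1 CPM in siControl libraries (log2 fold change 0.02, SE 0.051). POLR2H had 59.1 and 56.2 CPM in siNSUN2 libraries, against 59.8 and 58.7 CPM in siControl libraries (log2 fold change −0.04, SE 0.045). Both were called lower with the trends removed, POLR2F at −0.21 (adjusted p = 0.0107) and POLR2H at −0.42 (adjusted p = 1.41e-04).

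The direction of a subunit went with the GC content of its transcript, as it did over the coding genes as a whole. Of 9 subunits under 45% GC, 8 were lower and 0 higher, with a median log2 fold change of −0.60, against a median of −0.20 over 4692 coding genes in that range, of which 50.3% were lower and 15.8% higher. Of 10 subunits with 55% GC or more, 5 were higher and 1 lower, with a median of 0.11, against 0.44 over 3927 coding genes, of which 59.4% were higher and 8% lower, shares near those of the subunits. The 13 subunits between them had a median of −0.20, with 1 higher and 7 lower, against −0.0096 over 3985 coding genes, of which 29.1% were higher and 30% lower. Across the 32 subunits, which share the same 4 libraries, Spearman's rho between GC content and log2 fold change was 0.68 and Pearson's r 0.67.

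When the trends of each library with GC content and transcript length were removed, 1 subunit was called higher and 20 were called lower, and the median log2 fold change was −0.28. Over all genes, 22.4% were then called higher and 23.7% lower. The subunit still called higher was POLR3C. All 6 subunits found only in polymerase I were still called lower, with a median of −0.53, as were 6 of those found only in polymerase III. Of the 5 common subunits, 4 were lower and 0 higher. This correction takes off each library any trend with GC content and length, including one that the siRNA may have caused, and the part of library preparation in the trend was not tested.

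**Figure D4:**
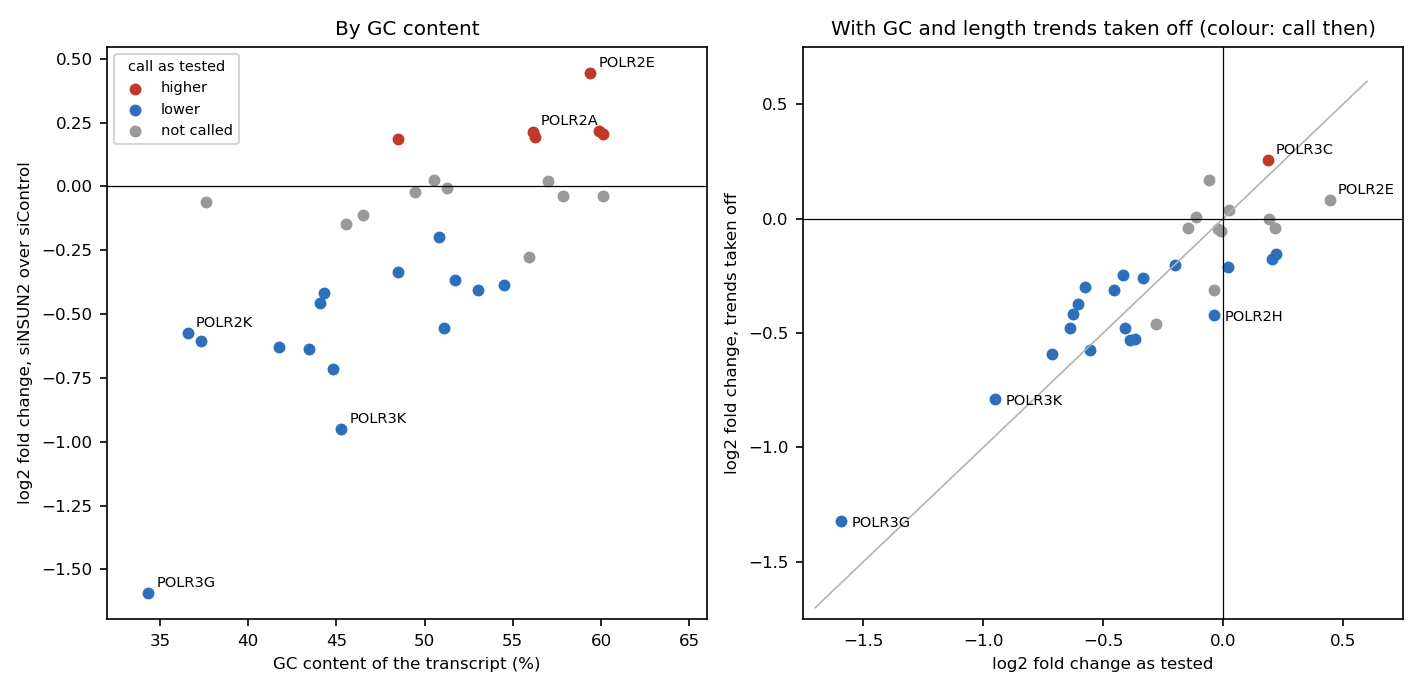
Left, log2 fold change, siNSUN2 over siControl, of 31 of the 32 subunits tested against the GC content of the transcript, coloured by the call as tested. Right, the log2 fold change with the GC and length trends removed against that as tested, coloured by the call then, with the grey line where both are equal; POLR3G is lowest of those plotted, followed by POLR3K, and POLR3C is the only subunit called higher.

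The word ACCCTA was searched in the longest annotated 3′ UTR of 32 subunits, all but POLR2A, whose full transcript has no coding annotation in GENCODE release 29. It was found in 9 (28.1%), against 21.4% of 18659 coding genes. Of these 9 subunits, 5 were lower, 1 was higher and 3 were not called, with a median log2 fold change of −0.37. The 22 tested without it had 11 lower, 4 higher and 7 not called, with a median of −0.24. Coding genes were taken here with an average log2 CPM above 1, a cut not applied to the subunits. Their medians were −0.18 for 2501 with the word and 0.06 for 8058 without it. Of those with the word 49.9% were lower and 24.6% higher, and the share lower is near that of the subunits with it, while of those without it 30.5% were lower and 40% higher. POLR3G, POLR3K and POLR1B, which fell the most, hold no ACCCTA in the 3′ UTR searched. Sites are shown from 3 subunits that fell, from POLR3A, whose groups overlapped, and from POLR1C, with 10 bases on each side and the word in capitals.
POLR1A: tgtcccaggcACCCTAagatgcacaa
POLR1F: gctcatacaaACCCTAtagcctagac
POLR3F: gttagaatttACCCTAgattcttatt
POLR3A: tgcctggtaaACCCTActgtttgtgc
POLR1C: acatggttttACCCTAatttaaaaca

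POLR1A holds 3 such sites in a 3′ UTR of 7207 bases, and POLR1C holds 2 in 1499 bases. POLR1F, POLR3F and POLR3A hold 1 each. The isoform that T24 cells use was not measured, so a site in the longest annotated 3′ UTR may be missing from the mRNA counted.

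Promoter windows were in the RefSeq table for 24 of the 33 genes. Of these, 9 (37.5%) held CCGGAAG on either strand, against 16.9% of 15038 coding genes, and 3 (12.5%), POLR2F, POLR2H and POLR3B, held the palindromic site of NRF1, against 1.98%. GGGCGG, the GC box, was found in 16 (66.7%), against 65.7% of coding genes. CACGTG, the E-box that MYC binds, was found in 4 (16.7%), namely POLR1G, POLR3A, POLR3C and POLR3E, against 10.9%. CCAAT was found in 6 (25.0%), against 42.6%, AAGATGGCG in 1 (4.17%), against 3.31%, and TATAAA in 1 (4.17%), POLR2M, against 12.2%. The AAGATGGCG motif of YY1 can overlap the end of CCGGAAG. A match describes letters in the window only.

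Levels per length were widely spread, and below POLR2L their order depended on the length used. Per kilobase of the transcript used, POLR2L was highest, with 208.5 ± 10.7 CPM in siNSUN2 cells and 181 ± 0.20 CPM in siControl cells (SD, n = 2 each). By exon union POLR2L was highest too, with 163 CPM per kilobase in siNSUN2 cells and 141 CPM per kilobase in siControl cells. POLR2K had 63.8 ± 1.4 CPM per kilobase of transcript in siNSUN2 cells and 95.0 ± 0.60 in siControl cells, and POLR2A had 67.9 ± 2.0 in siNSUN2 cells and 58.5 ± 0.54 in siControl cells. By exon union POLR2A stood above POLR2K in siNSUN2 cells, at 54.8 and 37.2 CPM per kilobase, and below it in siControl cells, at 47.3 and 55.4, so this pair changed order under either length. POLR2G, with 82.0 ± 6.6 CPM per kilobase of transcript in siNSUN2 cells and 80.8 ± 2.2 in siControl cells, was at 35.3 in siNSUN2 cells and 34.8 in siControl cells by exon union. POLR2J2 and POLR2J3 were lowest under either length. Next to them, POLR3B was lowest per kilobase of transcript, with 4.06 ± 0.42 CPM in siNSUN2 cells and 5.58 ± 0.043 CPM in siControl cells. By exon union POLR3B had 3.57 CPM per kilobase in siNSUN2 cells and was again the lowest next to them. In siControl cells it had 4.91 by exon union, and POLR2M, POLR2F and POLR3D lay below it.

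The factors that work with the polymerases were read from 8 lists sorted by role. Beside them, 33.6% of all coding genes tested were called higher and 30.7% lower. Factors of polymerase I load the enzyme on ribosomal DNA or serve the nucleolus. Of the 15 tested, 8 (53.3%) were lower and 2 (13.3%) higher (median log2 fold change −0.22). With the trends removed, 9 were lower and 1 higher. NOLC1, a nucleolar phosphoprotein, fell the most, to 230.4 ± 4.5 CPM in siNSUN2 cells, against 419 ± 9.7 CPM in siControl cells (log2 fold change −0.86). SIRT7, a deacetylase that promotes ribosomal DNA transcription, had 43.7 ± 2.7 CPM in siNSUN2 cells, against 30.6 ± 0.58 CPM in siControl cells (0.52, and 0.04 with the trends removed, not called).

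Of the 31 general factors of polymerase II, 19 (61.3%) were lower and 4 (12.9%) higher (median −0.29). Over all coding genes the shares were 30.7% lower and 33.6% higher. With the trends removed, 17 of the general factors were lower and 5 higher. ERCC3, the translocase of TFIIH that opens the promoter, had 70.7 ± 3.9 CPM in siNSUN2 cells, against 131 ± 4.9 CPM in siControl cells (log2 fold change −0.88). TAF6, a histone-fold subunit of TFIID, was called higher (0.50), and was not called with the trends removed (0.11, adjusted p = 0.0963). Of 33 Mediator subunits, 12 (36.4%) were higher and 8 (24.2%) lower (median 0.09). MED16, of its tail, had 49.8 ± 2.4 CPM in siNSUN2 cells, against 22.3 ± 0.56 CPM in siControl cells (1.16, and 0.52 with the trends removed), and MED4 fell by 0.53 on the log2 scale (−0.26 with the trends removed). With the trends removed, 12 Mediator subunits were higher and 6 lower.

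Of 41 elongation and pausing factors, 14 (34.1%) were higher and 12 (29.3%) lower (median 0.07), close to the 33.6% higher and 30.7% lower of all coding genes. With the trends removed, 10 were higher and 12 lower. ELL, an elongation factor of the super elongation complex, led the rises (0.89, and 0.48 with the trends removed). MLLT3, a reader subunit of that complex, led the falls (−0.80, and −0.61 with the trends removed). Of 15 Integrator subunits, 7 (46.7%) were lower and 4 (26.7%) higher (median −0.13). With the trends removed, 7 were lower and 2 higher. The list ran from INTS2 (−0.99) to INTS1 (0.54), the largest subunit, which turned to −0.16 with the trends removed. Of 10 phosphatases of the POLR2A tail, their relatives and tail-binding RPRD proteins, 6 (60%) were lower and 2 (20%) higher (median −0.16). RPRD1A (−0.39) and RPRD2 (−0.17) were among those lower, and RPRD1B was not called. With the trends removed, 5 genes of this list were lower and 2 higher. CTDSPL, a small phosphatase, had 9.10 ± 0.10 CPM in siNSUN2 cells, against 35.5 ± 0.072 CPM in siControl cells (−1.96), whereas its relative CTDSP1 rose (0.73, and 0.25 with the trends removed).

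Of 20 factors of polymerase III, 9 (45%) were lower and 5 (25%) higher (median −0.06). With the trends removed, 11 were lower and 3 higher (median −0.13). MAF1, the repressor of polymerase III, had 97.7 ± 4.1 CPM in siNSUN2 cells, against 61.2 ± 0.11 CPM in siControl cells (log2 fold change 0.68, SE 0.045, adjusted p = 2.05e-06). With the trends removed it was still called, at 0.18 (adjusted p = 0.00604). SNAPC1, of the complex that starts small nuclear RNA genes, fell by 0.84 on the log2 scale (SE 0.16), and stood at −0.59 with the trends removed. Of 16 assembly factors of the polymerases, 9 (56.25%) were lower and 3 (18.75%) higher (median −0.19). With the trends removed, 8 were lower and 1 higher. The list ran from RUVBL1, an ATPase of the chaperone complex R2TP (−0.61), to RPAP1 (0.54, and 0.16 with the trends removed). POLRMT, the single-subunit mitochondrial polymerase, had 43.7 and 47.1 CPM in siNSUN2 libraries, against 28.3 and 31.8 CPM in siControl libraries (0.59, adjusted p = 1.42e-04), and stood at −0.12 (adjusted p = 0.192) with the trends removed.

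**Figure D5:**
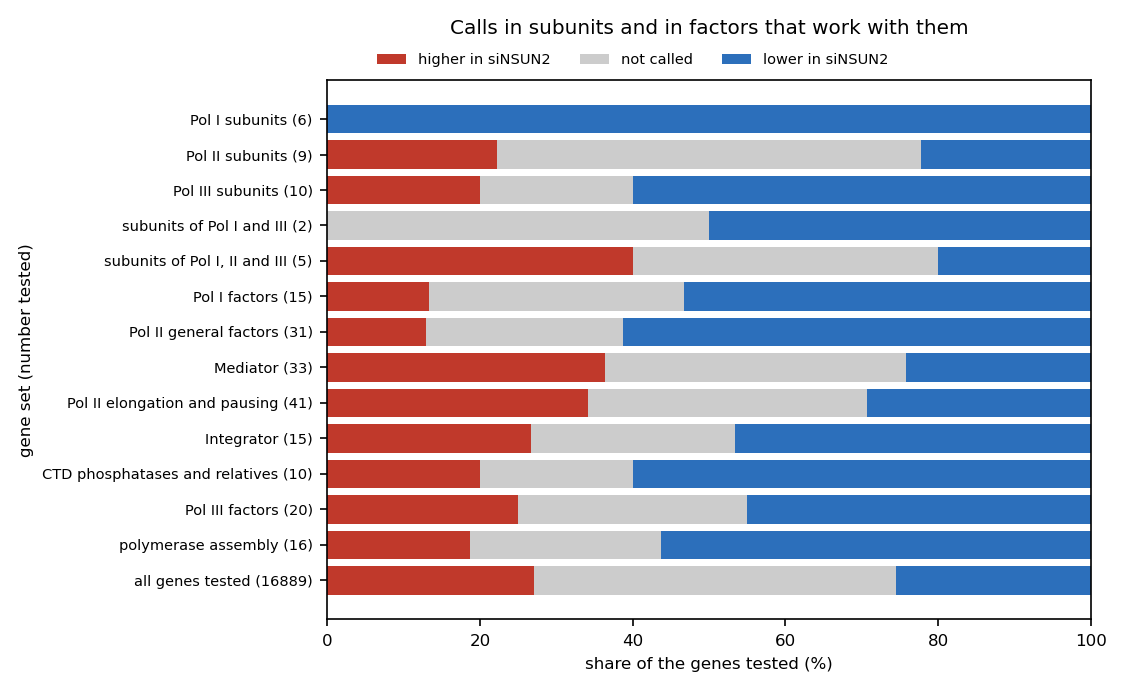
Share of the genes tested that were called higher (red), called lower (blue) or not called (grey) in siNSUN2 against siControl libraries, for the subunits by polymerase, for the 8 lists of factors and for all genes tested. Polymerase I subunits are lower in all 6 cases, and the general factors of polymerase II are lower in 19 of 31.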

How the data were processed

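The authors deposited raw counts per Ensembl gene for 4 poly(A) RNA libraries. HISAT2, HTSeq and the build hg19 are named, per the submitters' processing notes. No source used here gives their versions, the annotation or the strand setting. Groups and replicate numbers came from sample titles. The members and gene lists were chosen with earlier results of these data known.

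Counts were tested with edgeR 4.0.16 in R 4.3.3 (quasi-likelihood, robust, TMM, filterByExpr, no replicate block), two-sided, with Benjamini-Hochberg adjustment over 16889 genes and a threshold of 0.05. Each SE is the absolute log2 fold change divided by the square root of the F statistic, so it follows from the test. The test was also run on simulated independent counts with the same dispersion for every gene. That setting differs from these libraries, so it cannot show how the test behaves on them. A chi-square test of the counts within each group gave 13.5 per degree of freedom for siNSUN2 and 20.5 for siControl, so no library repeats another within sampling noise. Biotypes, transcripts, GC content and length came from GENCODE release 29 on GRCh38, joined by gene ID to the hg19 counts, and no gene coordinates are given. The transcript was the longest paired with a RefSeq mRNA, or otherwise the longest. Windows of 100 bases were searched in transcripts of other genes. Promoters came from RefSeq (GRCh38.p14). The genes named were all members, NSUN2, POLRMT, and from each list the largest called rise and fall with an average log2 CPM of at least 2. Outside this rule, RPRD1A, RPRD1B and RPRD2 were named after their values were seen. Of 33 general factors, 31 matched a symbol. Alternatives were DESeq2 1.42.0, limma-voom (limma 3.58.1), other scalings, filters and thresholds, libraries left out or thinned, a replicate block, loess trends with GC content and length removed, and genes with ACCCTA left out. The correction of the lists was added after seeing the data. The values of 1 member are not reported here and it is not plotted, though counts and medians over the members include it.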

Additional observations from a re-analysis of the deposited data

How the results depend on the processing

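POLR1A, POLR1B, POLR1D, POLR1E, POLR1F, POLR2B, POLR2K, POLR3B, POLR3F, POLR3G and POLR3K kept their direction and call under all 17 or 18 alternatives that gave them a value. Subunits called higher numbered 3 with DESeq2, 1 with the GC and length trends removed, 2 with those trends removed and a replicate block, and 1 when tested against a fold of 1.2, where the count of all genes called higher was 2913 and that of all genes called lower was 2529. The subunits' median log2 fold change was −0.29 with DESeq2, −0.33 with limma-voom, and −0.40 to −0.15 with 1 library left out. Such a fit leaves a group of 1, so its counts of called subunits are not given.

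Direction turned as follows, as log2 fold changes, and the cause was not tested. With the GC and length trends removed, and with a replicate block as well, POLR1C stood at 0.0076 and 0.0059, POLR2A at −0.042 and −0.043, POLR2F at −0.21 in both, POLR2I at −0.15 in both, POLR2L at −0.18 in both, POLR2M at 0.17 and 0.18, POLR3D at −0.0026 and −0.0019, and the median of the common subunits at −0.21 in both. Thinned to the shallowest library, POLR2F and that median stood at −0.024, POLR2G at −0.050 and POLR3A at 0.031. With ACCCTA genes left out, POLR2F and that median stood at −0.049. DESeq2 gave −0.0068 for POLR2F and that median and −0.00034 for POLR2G. POLR3E stood at 0.024 with limma-voom, 0.0051 with library totals only and 0.011 without a filter. With 1 library left out, POLR2F ranged from −0.039 to 0.025, POLR2G from −0.065 to 0.11, POLR2H from −0.090 to 0.0084, POLR2J from −0.64 to 0.11, POLR2J3 from −0.52 to 0.70, POLR2M from −0.25 to 0.074, POLR3A from −0.11 to 0.013, POLR3E from −0.089 to 0.072, the median of the subunits found only in polymerase II from −0.27 to 0.074, and that of the common subunits from −0.039 to 0.025.

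Deviations of same-numbered libraries correlated at 0.24 over 11706 genes, a positive value. It comes from 2 pairs of libraries only, which cannot decide whether the numbers pair the libraries, and the main test has no replicate block. POLR2J was higher in replicate 2 than in replicate 1 of both groups. With the replicate block, POLR2J (−0.24, adjusted p = 2.24e-04), POLR2D and POLR1C were called lower and POLR2J3 stood at 0.11. POLR2J2 and POLR2J3 had 0 to 204 counts per library, which limits their precision. Lengths by exon union were tried after seeing the data.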
